A study of Mus musculus with 12 samples.

Results

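The 10 genes described here encode proteins that coat cytosolic lipid droplets or that release fatty acids from stored triglyceride, together with their inhibitors. They were taken as a list of gene names, and each was found by its Ensembl identifier in both deposited tables, which list 32579 genes between them. The members are Plin2, Plin3, Hilpda, Pnpla2, Abhd5, Lipe, Mgll, G0s2, Hsd17b13 and Angptl4. They were followed in 2 mouse cell lines, AML12 hepatocytes and iWAT cells, which the labels call white adipocytes. Per line, 3 libraries are of cells kept for 48 h from confluence with diethyl phthalate (DEP) at 50 µM, an ester of phthalic acid found in plastics and cosmetics. Another 3 libraries per line, named DMSO in their titles, came from cells without DEP. The treatment field gives the medium as DMEM/F12 for AML12 and DMEM for iWAT, with or without DEP, so medium and line cannot be told apart. No genetic change is named for any group, and each group stands for a single line.

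A lipid droplet is a core of triglyceride and sterol ester inside a phospholipid monolayer that carries proteins. Perilipins coat it and limit access to the core. Lipolysis runs in steps: Pnpla2 (ATGL), helped by its coactivator Abhd5 (CGI-58), removes the first fatty acid, Lipe (hormone-sensitive lipase) acts on diglyceride and Mgll (monoglyceride lipase) frees the last one. G0s2 and Hilpda are small inhibitors of Pnpla2. Hsd17b13 is a droplet-bound dehydrogenase found mainly in liver, and Angptl4 is a secreted inhibitor of lipoprotein lipase, the enzyme that frees fatty acids from circulating lipoproteins. Plin2, Hilpda, G0s2 and Angptl4 are known targets of the fatty acid receptors of the PPAR family, and Hilpda, Plin2 and Angptl4 are also induced by low oxygen.

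Levels are in FPKM, which scales reads to gene length and library total, so that genes can be set beside each other. The libraries held 42845105 to 54585090 reads, and 1 read in a gene of 1 kb was worth 0.0183 to 0.0233 FPKM. A level under 3 reads was not resolved, and this floor covers counting error only. Marker transcripts were checked against the labels. In AML12, 7 of 11 hepatocyte markers and 4 of 5 markers of simple epithelium passed a filter of 0.5 FPKM in 3 libraries. Their summed levels ran from 520 to 530 and from 3786 to 3816 FPKM in DMSO, and from 585 to 598 and from 4276 to 4304 FPKM in DEP. In iWAT, only 2 of 9 fat cell markers passed, Pparg and Fabp4. Adipoq and Plin1, which define mature fat cells, had DMSO means of 0.0184 and 0.00285 FPKM there, so the label of white adipocytes was not borne out by them. Of the mesenchymal and adipose progenitor markers, 7 of 8 passed in iWAT, and their summed level was 325 to 334 FPKM in DMSO and 240.4 to 249 FPKM in DEP. Among 6 leukocyte markers Cd68 alone passed, at 11.1 and 4.34 FPKM in AML12 DMSO and DEP (called down) and at 10.9 and 13.4 FPKM in iWAT (called up), and Ptprc, Adgre1 and Cd3e were at 0 in iWAT. The part of these shifts in the results below was not tested. In whole cultures, fewer cells of a type and less RNA per cell cannot be told apart.

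Plin2 was the most abundant member in both lines. In AML12 DMSO libraries the order of mean levels was Plin2 (50.9 FPKM), Plin3 (34.1), Hilpda (27.3), Pnpla2 (23.0), G0s2 (22.4), Angptl4 (5.90), Abhd5 (3.88), Hsd17b13 (3.66), Lipe (1.32) and Mgll (0.0180). Pnpla2 and G0s2 overlapped between libraries, as did Abhd5 and Hsd17b13, and the other neighbours did not. In iWAT DMSO libraries the order was Plin2 (57.6 FPKM), Plin3 (36.0), Pnpla2 (12.8), Hilpda (12.1), Abhd5 (10.1), Angptl4 (5.12), G0s2 (2.16), Lipe (0.854), Mgll (0.0547) and Hsd17b13 (0.0170). There Pnpla2 overlapped with Hilpda, and Mgll with Hsd17b13. The lines were deposited as separate tables, and levels were not tested between them. The coactivator Abhd5 and the inhibitor G0s2 changed places between these orders, with G0s2 above Abhd5 in AML12 and below it in iWAT. Hilpda, the other inhibitor of Pnpla2, was above Abhd5 in both.

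**Figure D1:**
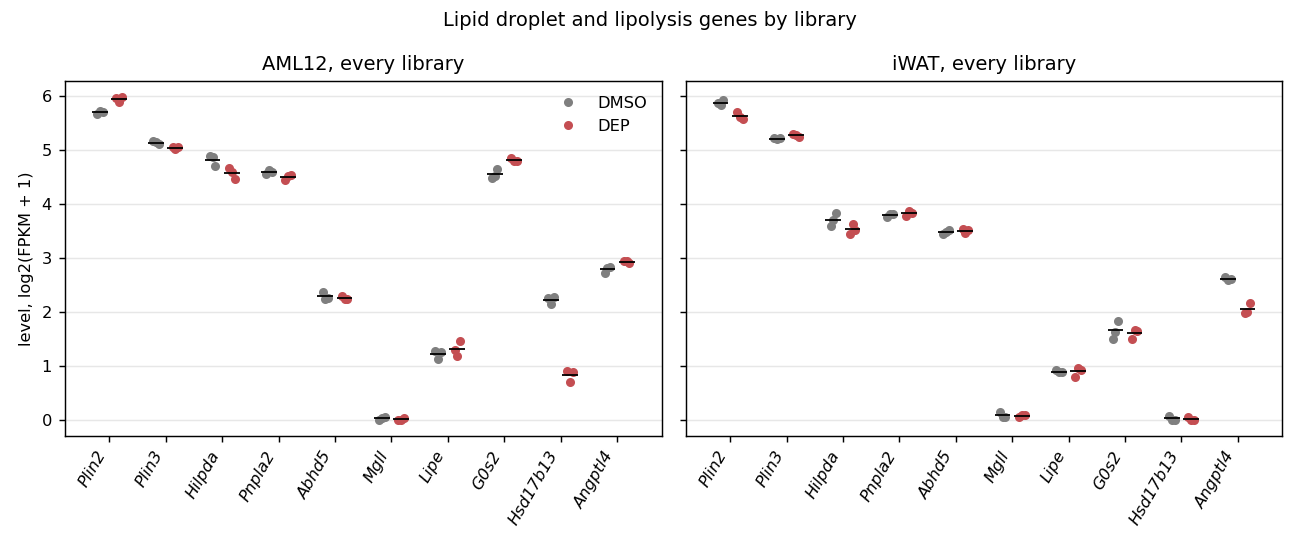
Level of each of the 10 members in every library, as log2(FPKM + 1), for AML12 (left) and iWAT (right), with DMSO in grey and DEP in red. Points are libraries and bars are means of 3. Plin2 stands highest in both panels, and Hsd17b13 drops in AML12 and lies near 0 in iWAT.

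Promoter sequence from RefSeq (GRCm38.p6) was found for 9 of the 10 members, all but Angptl4. The alignments behind the FPKM values used GRCm39, so these coordinates serve only to place the sequences. The 250 bases before each start were searched on both strands for ACGTG and GCGTG, the core letters of hypoxia response elements, and for AGGTCA, the hexamer that nuclear receptors such as PPARs bind. ACGTG was found in 16.6%, GCGTG in 28.2% and AGGTCA in 14.0% of 32851 such windows over all genes, so single matches are common. The PPAR-type repeat AGGTCANAGGTCA was found in 0.0335% of the windows and in none of the members. Shown are the windows of the member with the largest change (Hsd17b13), of a member that changed in opposite directions in the lines (Plin2) and of the inhibitor that rose in AML12 (G0s2), 5′ to 3′ on the gene's strand, with matches in capitals.
Hsd17b13, chr5:103977389-103977638, minus strand: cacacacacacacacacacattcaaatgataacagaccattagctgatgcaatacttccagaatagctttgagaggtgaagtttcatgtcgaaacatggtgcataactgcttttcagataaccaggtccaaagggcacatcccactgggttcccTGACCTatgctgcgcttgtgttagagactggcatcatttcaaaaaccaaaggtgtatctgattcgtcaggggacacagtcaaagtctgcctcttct
Plin2, chr4:86670060-86670309, minus strand: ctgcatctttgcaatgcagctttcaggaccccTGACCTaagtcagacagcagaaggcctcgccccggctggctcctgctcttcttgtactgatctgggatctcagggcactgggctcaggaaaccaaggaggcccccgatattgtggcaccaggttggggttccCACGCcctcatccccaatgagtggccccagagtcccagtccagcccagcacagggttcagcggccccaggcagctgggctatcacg
G0s2, chr1:193273189-193273438, minus strand: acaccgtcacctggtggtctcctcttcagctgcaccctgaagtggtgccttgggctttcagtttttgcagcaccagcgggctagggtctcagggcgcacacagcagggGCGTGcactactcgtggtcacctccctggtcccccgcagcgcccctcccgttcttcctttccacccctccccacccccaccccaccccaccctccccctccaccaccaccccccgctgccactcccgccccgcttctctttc
Hsd17b13 and Plin2 each held the receptor hexamer once, read on the opposite strand as TGACCT, at 96 and 218 bases before the start. Abhd5, which was not called in either line, also held TGACCT, at 69 bases, and GCGTG, at 18 bases before its start. Plin2 and G0s2 each held GCGTG once, in Plin2 on the opposite strand as CACGC. Hilpda has 2 annotated starts, and the later one carried 3 hypoxia cores, at 111, 43 and 8 bases before it, while the window of the earlier start held none. Such cores were as many or more in other members: 3 before the first start of Lipe, in which ACGTG overlaps its own reverse, and 4 and 7 before the starts of Mgll. The surroundings of 2 of these cores in Hilpda, a gene known for its response to low oxygen, are as follows.
Hilpda, chr6:29272503-29272531, plus strand: caaccgcgagccGCGTGctttccgtgact
Hilpda, chr6:29272571-29272599, plus strand: gatggccagcggACGTGccccagggcgag
Plin3 and Pnpla2 held none of the motifs. A match describes letters in a window, and binding was not measured.

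In AML12, DEP was compared with DMSO to see which steps of triglyceride storage and release changed in hepatocytes. With DEP the droplet enzyme Hsd17b13 fell by far the most of the members, Plin2 and the Pnpla2 inhibitor G0s2 rose (FPKM ratios of DEP to DMSO of 1.19 and 1.21), and Hilpda, the other inhibitor, fell (ratio 0.838). Among the members, the lipases and the coactivator did not pass the test. Mgll lay under the filter and was not tested. Of the 9 members tested, 3 rose and 3 fell by limma at an adjusted p below 0.05, and all 9 met the filter in both groups. Over all genes tested in AML12 39.2% were called, 23.9% up and 15.3% down. When libraries were centred on their medians, 3092 genes up and 1982 down became 2357 up and 2545 down, and the 9 members kept their signs. The members' calls then became 2 up and 4 down, without Angptl4 and with Pnpla2, and voom also gave 2 up and 4 down. In 7 of the 9 members DMSO and DEP libraries did not overlap, against 52.0% of all tested genes. The median log2 fold change was -0.03 over the members and 0.03 over all genes. The count of 6 called members became 3 without DMSO replicate 1, DMSO replicate 2 or DEP replicate 2.

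Hsd17b13 (ENSMUSG00000034528) stood at 3.75, 3.40 and 3.83 FPKM in the AML12 DMSO libraries and at 0.876, 0.621 and 0.840 FPKM in the DEP libraries. All DEP libraries lay below all DMSO libraries, and the mean was 4.70-fold lower. The same libraries held 374, 334 and 354 reads against 100, 66 and 91. The fitted log2 fold change was -1.39 ± 0.07 (SE, adjusted p = 4.14e-05). On the log2(FPKM + 1) scale used for all tests the change of genes near 1 FPKM is understated, and on recovered reads it was -2.27. In iWAT the gene had 6 reads in DMSO replicate 1, 4 in DEP replicate 1 and 0 in the other 4 libraries, which was too few for a comparison. The promoter shown above carried a receptor hexamer, as 14.0% of windows did.

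Among the coat proteins, Plin2 (ENSMUSG00000028494), which stays on mature droplets, stood at 50.0, 51.6 and 51.2 FPKM in AML12 DMSO and at 61.4, 58.5 and 61.9 FPKM in DEP. Every DEP library was above every DMSO library, and Plin2 rose by 0.25 ± 0.03 on the log2 scale (adjusted p = 0.00075). Plin3 (ENSMUSG00000024197), a perilipin that moves from the cytosol onto nascent droplets, stood at 34.6, 34.3 and 33.4 FPKM in DMSO and at 32.0, 31.4 and 32.4 FPKM in DEP. The groups were apart, and Plin3 fell by 0.09 ± 0.02 on the log2 scale (adjusted p = 0.0213). This small fall lost its call without DMSO replicate 1 (adjusted p = 0.0683), DMSO replicate 2 (0.0653) or DEP replicate 2 (0.0691), and with no trend (0.0514) or the replicate block (0.0646), over a range of 0.00106 to 0.0691 across 14 alternatives.

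The inhibitors of Pnpla2 went in opposite directions in AML12. G0s2 (ENSMUSG00000009633) stood at 21.3, 22.0 and 23.9 FPKM in DMSO and at 27.8, 26.9 and 26.6 FPKM in DEP. The DEP libraries lay above the DMSO libraries without overlap, a rise of 0.26 ± 0.04 on the log2 scale (adjusted p = 0.00359). Hilpda (ENSMUSG00000043421) stood at 28.5, 28.2 and 25.03 FPKM in DMSO and at 24.4, 23.2 and 20.97 FPKM in DEP. The lowest DMSO library was barely above the highest DEP library, and Hilpda fell by 0.24 ± 0.07 on the log2 scale (adjusted p = 0.0273). The call was lost without DMSO replicate 1 (adjusted p = 0.0821), DMSO replicate 2 (0.0833), DEP replicate 2 (0.0576) or DEP replicate 3 (0.0659), and with no filter (0.0832), and the range over 14 alternatives was 0.00208 to 0.0833.

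The lipases and the coactivator among the members did not pass the test in AML12. Pnpla2 (ENSMUSG00000025509) stood at 22.4, 23.6 and 23.1 FPKM in DMSO and at 20.6, 21.8 and 22.1 FPKM in DEP. The groups did not overlap, with a log2 fold change of -0.09 (95% interval -0.17 to -0.01, adjusted p = 0.0632). That value passed the test when libraries were centred on their medians (adjusted p = 0.0207) and with voom on recovered reads (0.00844), and ran from 0.00844 to 0.169 over 14 alternatives. Abhd5 (ENSMUSG00000032540) had means of 3.88 and 3.78 FPKM with overlapping groups (interval -0.15 to 0.09, adjusted p = 0.660). Lipe (ENSMUSG00000003123) had means of 1.32 and 1.49 FPKM, again with overlap (interval -0.10 to 0.30, adjusted p = 0.403). Mgll (ENSMUSG00000033174) was almost silent, with 12 reads over the 3 DMSO libraries and 4 over the 3 DEP libraries.

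Angptl4 (ENSMUSG00000002289), the secreted inhibitor, stood at 5.58, 6.01 and 6.11 FPKM in AML12 DMSO and at 6.69, 6.66 and 6.48 FPKM in DEP. All DEP libraries were above all DMSO libraries, and Angptl4 rose by 0.14 ± 0.04 on the log2 scale (adjusted p = 0.0283). It was the least stable call among the members. It was lost when libraries were centred on their medians (0.11 on the log2 scale, adjusted p = 0.0817), with voom (0.104), no filter (0.0626) or the replicate block (0.0696), and without DMSO replicate 1 (0.0672), DMSO replicate 2 (0.0533), DEP replicate 1 (0.0744), DEP replicate 2 (0.0789) or DEP replicate 3 (0.0526), with a range of 0.0254 to 0.104 over 14 alternatives.

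**Figure D2:**
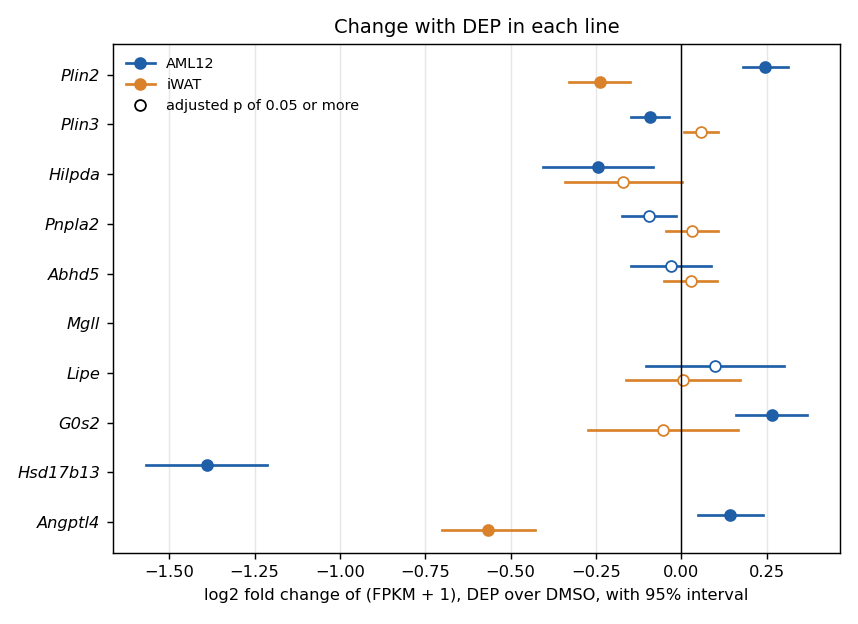
Log2 fold change of (FPKM + 1), DEP over DMSO, for each member in AML12 (blue) and iWAT (orange), with 95% intervals from limma over 3 libraries a group; filled points had an adjusted p below 0.05. Plin2 and Angptl4 lie on opposite sides of 0 in the lines, and Mgll in both lines and Hsd17b13 in iWAT have no point because they were not tested.

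In iWAT cells the same question was asked of cells of adipose origin. Angptl4 and Plin2 fell with DEP, and the other 6 members tested did not pass. Of the 8 members tested, 0 rose and 2 fell, while 8.54% of all tested iWAT genes were called, 4.03% up and 4.52% down. At an unadjusted limma p below 0.05 Plin3 joined them, as the 1 member with a positive log2 fold change, and 24.8% of all tested genes lay there; voom called the same 2 members and none upward. Libraries did not overlap in 3 of the 8, against 31.1% of all tested genes. The median log2 fold change was -0.02 over the members and 0.01 over all genes. The count over all genes, 1152, fell to 507 to 689 when any of the 6 libraries was left out, with the lowest without DMSO replicate 3. A fit with fewer libraries also has less power to call genes, so these falls do not show dependence on a given library.

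Angptl4 stood at 5.28, 4.98 and 5.10 FPKM in iWAT DMSO and at 2.95, 2.99 and 3.48 FPKM in DEP. Every DEP library was below every DMSO library, and the mean was 1.63-fold lower. The log2 fold change was -0.57 ± 0.06 (adjusted p = 0.00221), and it passed under all 14 alternatives, with an adjusted p of at most 0.0186. Plin2 stood at 57.3, 56.0 and 59.5 FPKM in DMSO and at 51.1, 48.1 and 46.8 FPKM in DEP. The groups were apart, with a log2 fold change of -0.24 ± 0.04 (adjusted p = 0.0128), which passed without any single library (adjusted p of at most 0.0498) and missed only with the replicate block (0.0506). Lpl, the lipoprotein lipase that Angptl4 inhibits, fell as well in iWAT, from 8.46 ± 0.200 to 6.38 ± 0.242 FPKM (SD, n = 3).

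The remaining members of iWAT showed small differences. Plin3 stood at 36.2, 35.6 and 36.2 FPKM in DMSO and at 38.0, 37.7 and 36.8 FPKM in DEP. These libraries did not overlap, with DEP above, but the log2 fold change of 0.06 did not pass (interval 0.01 to 0.11, adjusted p = 0.143). Hilpda stood at 11.0, 12.02 and 13.2 FPKM in DMSO and at 9.91, 11.4 and 10.5 FPKM in DEP, with overlap (log2 fold change -0.17, interval -0.34 to 0.00, adjusted p = 0.203). G0s2 had means of 2.16 and 2.03 FPKM and the widest interval of the members tested in iWAT, -0.27 to 0.17 (adjusted p = 0.772). The intervals were -0.04 to 0.11 for Pnpla2, -0.05 to 0.11 for Abhd5 and -0.16 to 0.17 for Lipe. Mgll had 44 reads over the DMSO libraries and 39 over the DEP libraries.

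Whether the lines responded differently was tested with an interaction term in limma over the 12 libraries; each value is the log2 fold change of AML12 less that of iWAT. Of all genes tested, 29.2% differed, 17.6% with a higher value in AML12 and 11.7% with a lower one. Of the 9 members tested, 3 were higher and 2 lower, Hsd17b13 among the latter. Angptl4 differed by 0.71 ± 0.07 (adjusted p = 3.54e-05) and Plin2 by 0.49 ± 0.05 (adjusted p = 4.70e-05), each with a rise in AML12 and a fall in iWAT. The AML12 side of the Angptl4 difference was the call that centring removed, and the difference itself stayed between 0.67 and 0.85 over 20 alternatives. Plin3 differed by -0.15 ± 0.03 (adjusted p = 0.00294). For Hsd17b13 the fit gave -1.38 ± 0.09 (adjusted p = 1.94e-06), but the gene entered the fit only through its AML12 level. With at most 6 reads in an iWAT library no iWAT response could be measured, so this value restates the AML12 change and shows no difference between the lines; voom gave an adjusted p = 0.206, in a range of 1.63e-06 to 0.206 over 20 alternatives.

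G0s2 differed by 0.32 ± 0.11 (adjusted p = 0.0465), close to the threshold. That call was lost in 15 of 20 alternatives, with an adjusted p of 0.0126 to 0.350. Leaving out AML12 DMSO replicate 1 or 2, any AML12 DEP library, iWAT DMSO replicate 2 or 3, or iWAT DEP replicate 1 or 3 each ended it, with adjusted p-values of 0.0994, 0.0879, 0.0900, 0.0743, 0.0686, 0.0705, 0.0716, 0.101 and 0.0619 in that order. Pnpla2 did not pass (-0.13, interval -0.23 to -0.02, adjusted p = 0.0646), but did without iWAT DEP replicate 1 (adjusted p = 0.0329), when centred on library medians (0.0254), with voom (0.0314) and with the replicate block (0.0355), in a range of 0.0254 to 0.138. The intervals were -0.32 to 0.17 for Hilpda, -0.18 to 0.07 for Abhd5 and -0.13 to 0.32 for Lipe.

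Ratios within a library do not depend on how libraries are scaled. The ratio of G0s2 to Pnpla2 was 0.950, 0.934 and 1.04 in AML12 DMSO and 1.35, 1.23 and 1.20 in DEP, so that the inhibitor transcript stood above that of its lipase in every DEP library. In iWAT this ratio was 0.146 to 0.196 in DMSO and 0.144 to 0.160 in DEP, with overlap. The ratio of Plin2 to Plin3 was 1.49 ± 0.0467 (SD, n = 3) in AML12 DMSO and 1.90 ± 0.0307 in DEP. In iWAT it was 1.60 ± 0.0364 in DMSO and 1.30 ± 0.0413 in DEP. The Plin2 to Plin3 groups did not overlap in either line, with DEP higher in AML12 and lower in iWAT. The ratio of Hilpda to Pnpla2 was 1.19 ± 0.0943 and 1.07 ± 0.117 in AML12, with overlap, and 0.939 ± 0.0725 and 0.805 ± 0.0324 in iWAT, without. The ratio of Abhd5 to Pnpla2 was 0.169 ± 0.0149 and 0.176 ± 0.0119 in AML12 and 0.787 ± 0.0131 and 0.786 ± 0.0464 in iWAT, with overlap in both. These ratios are given as a description and were not tested.

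**Figure D3:**
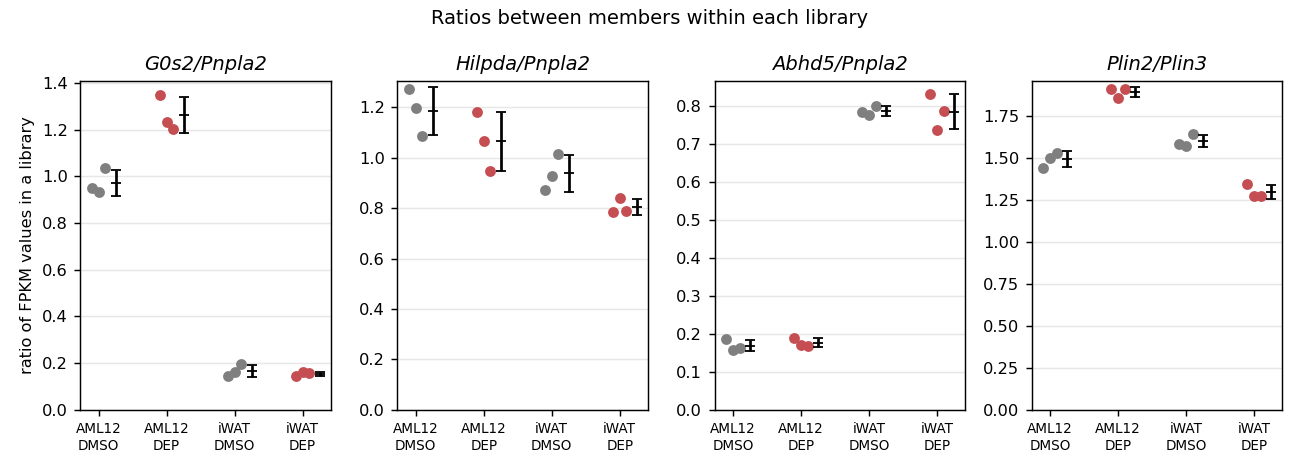
Ratio of 2 members' FPKM values within each library, with axes from 0, for DMSO (grey) and DEP (red); black marks are the mean and SD of 3 libraries. The ratio of Plin2 to Plin3 is higher with DEP in AML12 (1.90 against 1.49) and lower in iWAT (1.30 against 1.60), and that of G0s2 to Pnpla2 is higher with DEP in AML12 (1.26 against 0.973).

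Other genes of droplet biology were followed through 6 lists, described by counts only. Over all genes tested, 23.9% were called up and 15.3% down in AML12, and 4.03% up and 4.52% down in iWAT. Of 24 genes for droplet coat and formation, 17 were tested in AML12, of which 7 rose and 5 fell (median 0.10). Fitm2, which helps droplets bud from the endoplasmic reticulum and was named after its value was seen, rose by 0.31. Named likewise, Aup1, Dgat1 and Dgat2 fell, with log2 fold changes of -0.19, -0.15 and -0.14. Acsl3, an acyl-CoA synthetase of nascent droplets, rose from 50.7 to 55.4 FPKM, and Spast, a microtubule-severing enzyme, from 6.58 to 7.90 FPKM. Tmt1b (older name Mettl7b), a droplet-associated methyltransferase, fell from 120 to 93.7 FPKM, and Hsd17b11, the close relative of Hsd17b13, fell from 22.4 to 18.4 FPKM (-0.27 ± 0.02, adjusted p = 0.000251). In iWAT 0 of 17 rose and 1 fell, which was Acsl3, from 13.5 to 11.0 FPKM (adjusted p = 0.0170). This call ended without DMSO replicate 2 (0.0547), DMSO replicate 3 (0.0628) or DEP replicate 3 (0.0551), and with no filter (0.0522). The adipocyte perilipin gene Plin4 was at 9.24 and 8.88 FPKM in iWAT DMSO and DEP (adjusted p = 0.516), and Plin5, the perilipin of oxidative tissue, was below 0.1 FPKM on average in both lines.

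Of 32 genes for intracellular lipases and their control, 17 were tested in AML12, with 6 up and 3 down (median 0.03). Those that rose included Cav1 and Cavin1, which build caveolae, from 165 to 234 and from 102 to 139 FPKM, and the fatty acid carrier Fabp5, from 18.4 to 29.5 FPKM. Prkacb, a catalytic subunit of the kinase that triggers hormone-stimulated lipolysis, fell from 20.4 to 16.8 FPKM. Other subunits of that kinase, named after their values were seen, did not all fall. The catalytic Prkaca was at 35.8 and 36.2 FPKM in AML12 DMSO and DEP (limma adjusted p = 0.729). Of the regulatory subunits, Prkar1a and Prkar2a were called up and Prkar2b down. In iWAT 0 of 19 rose and 2 fell: Lipa, the lysosomal lipase, from 12.9 to 10.8 FPKM, and Pde4b, a phosphodiesterase that degrades cyclic AMP, from 2.81 to 1.85 FPKM. Lipa was also called down in AML12, from 22.4 to 20.4 FPKM (limma adjusted p = 0.0045).

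In the list of the lipoprotein lipase system and fatty acid entry, 7 of 13 genes were tested in AML12, with 1 up and 4 down (median -0.24). Vldlr, a lipoprotein receptor, fell from 22.8 to 17.1 FPKM, Angptl8, another inhibitor of lipoprotein lipase, from 4.70 to 3.59 FPKM, and Slc27a1, a fatty acid transporter, from 3.25 to 2.58 FPKM. Sel1l, which serves protein quality control in the endoplasmic reticulum, fell from 13.6 to 11.2 FPKM. In iWAT 0 of 7 rose and 1 fell, which was Lpl (-0.36 ± 0.04, adjusted p = 0.00221).

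Of 17 transcription factors tied to these genes, 15 were tested in AML12, with 2 up and 4 down. For both directions together this was close to the 39.2% called over all genes tested in AML12. Srebf1, the lipogenic regulator, rose from 35.2 to 46.2 FPKM and Klf15 fell from 9.95 to 8.02 FPKM. Foxo1, which drives Pnpla2 in fasting, and Rxrb, a partner of PPARs, had log2 fold changes of -0.17 and -0.10 (adjusted p = 0.0270 and 0.0386). The calls were unstable here. Of 6 calls, 2 or 3 were left without any single library, and Foxo1 then had an adjusted p of up to 0.0824 (without DEP replicate 3) and Rxrb of up to 0.111 (without DMSO replicate 1). In iWAT 1 of 14 fell, Hif1a, the oxygen-sensitive factor, from 25.9 to 20.97 FPKM, and none rose. Hif1a was also called down in AML12, from 28.6 to 27.3 FPKM (limma adjusted p = 0.0399). Ppara averaged 0.241 FPKM in AML12 DMSO, under the filter.

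The last lists hold genes that share a known regulator with members. Of 22 other PPAR targets, 15 were tested in AML12, with 1 up and 5 down (median -0.01). Up and down together were close to the 39.2% called over all genes tested in AML12. Vnn1, a pantetheinase, fell from 78.4 to 60.3 FPKM and Acot2, a mitochondrial thioesterase, from 3.42 to 1.95 FPKM, while Ucp2, an uncoupling protein, rose from 9.47 to 11.4 FPKM. In iWAT 0 of 14 rose and 3 fell: Acaa2, Acadl and Acadm, enzymes of mitochondrial fatty acid oxidation, by log2 fold changes of -0.23, -0.17 and -0.22. Acadl lost its call without DMSO replicate 2 (adjusted p = 0.0827), DMSO replicate 3 (0.0813), DEP replicate 1 (0.0736) or DEP replicate 2 (0.0860), with no filter (0.0742) and with no trend (0.0663). Acadm lost it without DMSO replicate 1 (0.0834), 2 (0.0986) or 3 (0.0650), DEP replicate 1 (0.0807) or DEP replicate 3 (0.0932), with no filter (0.0825), with no trend (0.0543) and with the replicate block (0.0520). All 23 other hypoxia-induced genes were tested in AML12, with 1 up and 18 down (median -0.36, against 0.03 over all genes). Ero1a, an oxidase of the endoplasmic reticulum, fell from 36.1 to 17.3 FPKM, Ndrg1 from 35.0 to 18.5 FPKM, Bnip3, a mitophagy receptor, from 44.1 to 26.2 FPKM and Aldoa, a glycolytic aldolase, from 758 to 572 FPKM. Of the 3 members also known for induction by low oxygen, Hilpda fell in AML12, while Plin2 and Angptl4 rose. In iWAT 2 of 22 rose, Kdm3a (a histone demethylase) by 0.22 and Ndrg1 by 0.27, and 1 fell, the angiogenic factor Vegfa, with a log2 fold change of -0.16. In iWAT, at an unadjusted limma p, 2, 3, 2, 0 and 1 genes lay upward in the lists of coat, lipases, lipoprotein lipase, transcription factors and PPAR targets, where the adjusted test called 0, and voom called 1, 2, 1, 0 and 1.

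**Figure D4:**
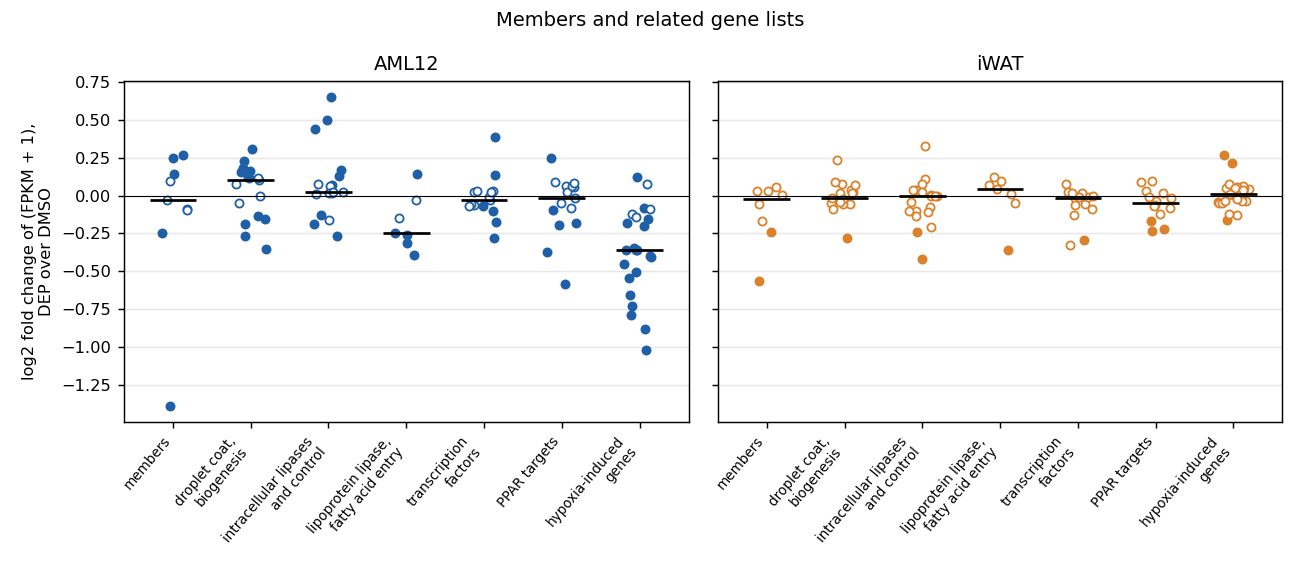
Log2 fold change of (FPKM + 1), DEP over DMSO, for the members and 6 lists of related genes in AML12 (left) and iWAT (right). Each point is a tested gene, filled where the adjusted p was below 0.05, and bars are medians; the AML12 hypoxia list has a median of -0.36, and Hsd17b13 is the lowest member at -1.39.

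Genes with the most similar profile were found by the root mean square difference of log2(FPKM + 1), centred per gene, over the 12 libraries and among 11790 named genes in both tables. The 12 libraries share lines and treatment, so the measure mostly follows those. Nearest to Plin2 were Ptma (0.055) and Slc25a15 (0.063), which also were higher with DEP in AML12 (678 to 835 and 5.51 to 6.79 FPKM) and lower in iWAT (764 to 691 and 6.28 to 5.73 FPKM). Nearest to Angptl4 were C1s1 (0.094) and Gbp9 (0.132). C1s1 was higher with DEP in AML12 (27.7 to 29.9 FPKM) and lower in iWAT (25.5 to 18.1 FPKM). Gbp9 was lower with DEP in both AML12 (3.91 to 3.58 FPKM), where Angptl4 rose, and iWAT (3.05 to 1.89 FPKM). Cybb (0.164) and Tmprss6 (0.177) were nearest to Hsd17b13, with AML12 levels of 2.85 and 0.979 FPKM and of 3.25 and 1.09 FPKM in DMSO and DEP. In iWAT DMSO and DEP, Cybb was at 0.00648 and 0.00468 FPKM and Tmprss6 at 0.220 and 0.203 FPKM. Hsd17b13 was near 0 there too, so in iWAT the likeness is only one of low levels. G0s2 was nearest to Ctsc (0.093) and the pseudogene Krt8-ps (0.105), and Hilpda to Suclg2 (0.088) and Plekhg6 (0.090). Reads assigned to Krt8-ps may stem from its parent gene, which was not tested. Of the remaining members, Plin3 had Dusp16 (0.024), Pnpla2 had Rala (0.036) and Sdf2l1 (0.037), Abhd5 had Plpbp (0.038) and Ank1 (0.045), and Lipe had Yae1d1 (0.058) and Snx6 (0.064). Ank1 was at 0.0434 FPKM in AML12 DMSO and 1.41 FPKM in iWAT DMSO, a range in which the added 1 FPKM compresses differences.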

How the data were processed

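RNA was taken with a mirVana kit, kept above a set integrity value and made into stranded total RNA libraries, per the labels' protocols. Trimmomatic and HISAT2 on GRCm39 are named in the submitters' processing notes. Versions, the counting tool, its annotation and its use of strand are not given in the sources used here. The authors deposited FPKM values per gene, in 1 table per line (27742 genes for AML12, 29092 for iWAT). Identifiers were paired with symbols by GENCODE M21 (95.1% and 94.9% matched). With its exon lengths, FPKM gave whole reads within 0.001 in every library for 89.4% of genes in each line, members included, and from these the library totals; a gene was more often at 2 reads than at 1, so pairs appear to be counted as 2.

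DEP was compared with DMSO by limma 3.58.1 in R 4.3.3 on log2(FPKM + 1) with a mean-dependent prior, for genes with at least 0.5 FPKM in 3 libraries of the line. Two-sided p-values took a Benjamini-Hochberg adjustment across every gene tested, with calls below 0.05. The joint fit used genes in both tables with 0.5 FPKM in any 3 libraries. The fits were tested on simulated data. All members are described, with up to 4 called genes of smallest p per list and line, and 2 nearest profiles per member. Some genes that this rule names are not reported here. Members and lists were chosen with earlier results of these data known. Where a symbol had 2 identifiers, the lower was used. Alternatives were pseudocounts of 0.1 and 0.5, no filter, a filter of 1 FPKM, median centring, no trend, voom on recovered reads with trimmed-mean scaling, a replicate block and leaving out each library. Nothing says that replicates were separate cultures, so p-values may measure technical spread. Replicate files differed beyond sampling noise (chi-square per degree of freedom of 4.69 to 8.64). That statistic treats reads as independent, so counting pairs as 2 would inflate it.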

Additional observations from a re-analysis of the deposited data

Results flagged for a closer look

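In 4 members, Plin2, Angptl4, Plin3 and G0s2, the response to DEP differed between the lines by the joint limma fit, given as the AML12 minus the iWAT log2 fold change. Plin2 differed by 0.49, with a rise in AML12 (0.25) and a fall in iWAT (-0.24). Angptl4 differed by 0.71, with 0.14 in AML12 and -0.57 in iWAT. Plin3 differed by -0.15, with -0.09 in AML12 and 0.06 in iWAT, where it did not pass. G0s2 differed by 0.32, and this call was lost in 15 of 20 alternatives. Hsd17b13 also passed that fit, at -1.38, but its iWAT response could not be measured at 10 reads over 6 libraries, so no difference between the lines is shown for it. Over all genes tested 29.2% differed between the lines.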

How the results depend on the processing

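Of 417 values of single members under alternatives, 369 kept their direction and their side of the threshold. Plin2, G0s2 and Hsd17b13 in AML12 and Angptl4 in iWAT kept their calls under all 14 alternatives. Directions turned only for values near 0 that had not passed: without single libraries AML12 Abhd5 ran from -0.0561 to 0.0109, iWAT G0s2 from -0.1303 to 0.0326 and iWAT Lipe from -0.0294 to 0.0531, and iWAT Lipe was at -0.0042 with voom.

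The count of AML12 members called ran from 3 to 6 when single libraries were left out. In iWAT, 1152 called genes became 664 with no filter, 1907 with voom, 673 without the trend, 503 with the replicate block and 507 to 689 without single libraries. With the replicate block 1 iWAT member, Angptl4, stayed called, since Plin2 reached an adjusted p = 0.0506. Equal replicate numbers showed no pairing: their deviations correlated at -0.06 to 0.03. In AML12 the block gave 4231 calls. Median centring turned 3092 up and 1982 down in AML12 into 2357 and 2545, and voom into 2583 and 2633; in the joint fit 2575 and 1708 became 2032 and 2220. For the lists, 261 of 288 counts stayed within 1.5 times; in AML12 the transcription factor count of 6 became 3 with no filter, no trend or the block, and in iWAT the lipase count of 2 became 6 with voom. Few reads limit what can be said of Mgll in both lines, and of Hsd17b13 in iWAT.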
